A study of Mus musculus with 10 samples.

Results

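The 10 genes described here belong to the circadian clock's negative limb and its output, in mouse retina: the repressors Per1, Per2, Per3, Cry1, Cry2 and Ciart, the REV-ERB receptors Nr1d1 and Nr1d2, and the PAR-bZIP output genes Dbp and Tef. They were chosen by symbol, and all 10 were found among the 19999 genes of the count table. Retinal RNA came from BALB/c mice, an albino strain, and was sequenced in 5 libraries of a light damage model and 5 control libraries. Every library of both groups has vehicle in its name, and the labels do not say what the vehicle was. The agent A74 is named in the study's design text, and no library treated with it was analysed here. The labels give no light intensity, duration of exposure, interval before dissection, time of day, age or sex, and they do not say that the libraries came from separate animals. The p-values below therefore measure the spread between these libraries, which may be technical.

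The circadian clock is a feedback loop of transcription. A dimer of CLOCK and BMAL1 (the product of Arntl) binds E-box sequences and activates the Per, Cry, Nr1d, Dbp and Ciart genes, and the PER and CRY proteins then return to the nucleus and inhibit that dimer. REV-ERB receptors repress Arntl, and PAR-bZIP factors carry the rhythm to genes with D-box sequences, the Per genes among them. The retina holds its own clock, spread over several of its cell types, and light can induce Per1 directly through CRE sequences in the brain's central clock.

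In light-damaged retina Per1 fell by 38.8% and Per3 fell by 21.2% relative to control retina, and the other 8 genes did not pass the test. Their fold changes lay on both sides of 0, from -0.22 for Per2 to 0.29 for Dbp on the log2 scale. Of the 10 genes, 2 were called lower at an adjusted p under 0.05 (edgeR quasi-likelihood), against 7.85% of all genes tested, and 0 were called higher, against 5.32%. Only Dbp had an unadjusted p under 0.05 among those with a positive fold change. DESeq2 called Dbp higher and limma-voom called no member higher. With the replicate number as a block 2 were lower, against 11.0% of all genes, and 1 higher, Dbp, against 8.49%. The groups did not overlap for 2 of the 10 genes with light damage below control, against 5.48% of all genes tested, and for 0 of the 10 with light damage above, against 4.31%. The median log2 fold change of the 10 genes was 0.08, and that of all 16852 genes tested was 0.00. Scaling by library totals in place of TMM moved the calls over all genes from 896 higher and 1323 lower to 1147 higher and 912 lower.

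A pair of light damage libraries stood apart from the rest. Counts of Xist, the noncoding RNA of the inactive X chromosome, were 17174 for light damage replicate 1, 20414 for replicate 2 and 1 to 9 for each of the other 8 libraries. The 9 lens markers in the table, of 12 listed, summed to 7506 and 4007 CPM there, to 21.4 to 118 CPM across the other 3 light damage libraries and to 3.28 to 31.4 CPM across controls. Of these 9 markers 3 were called higher, and Cryba4 was at 0 in control replicate 3. Summed markers of microglia (41.5 to 78.4 against 30.9 to 40.9 CPM, 1 of 5 called higher) and of amacrine cells (709 to 782 against 534 to 690 CPM, 2 of 5 called higher) were above control in every light damage library. The sums overlapped between groups for bipolar cells (3 of 6 called higher), Müller glia (2 of 5 called higher), cones (1503 to 1763 against 1445 to 1801 CPM, 1 of 6 called lower) and ganglion cells (0 of 5 called). The part of these shifts in the clock genes' values was not tested, and in bulk tissue fewer cells of a type and less RNA per cell cannot be told apart. Library totals ran from 14652535 to 20699236 counts, and the clock genes had between 204 and 6720 counts in a library.

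Levels of different genes were compared per kilobase of the longest annotated transcript. In controls Nr1d1 was highest at 107 ± 7.11 CPM per kb (SD, n = 5), followed by Dbp at 70.2 ± 12.1, Tef at 63.8 ± 3.60, Nr1d2 at 43.1 ± 2.66, Cry2 at 36.5 ± 2.57, Per1 at 28.6 ± 4.01, Per3 at 21.1 ± 2.58, Cry1 at 20.6 ± 1.75, Ciart at 10.8 ± 2.88 and Per2 at 6.35 ± 1.21 CPM per kb. Neighbours in this order overlapped between libraries for Dbp and Tef, Nr1d2 and Cry2, Cry2 and Per1, Per3 and Cry1, and Ciart and Per2. Over all libraries Nr1d1 stood at the 97.8th percentile of genes tested and Per2 at the 48.6th. In light damage Cry1 stood above Per1 and Per3, and the other genes kept their order by mean. Per1 lay above Cry1 in every control library, with 25.0 CPM per kb in its lowest and 23.0 in the highest of Cry1, and below it in every light damage library, with 19.5 CPM per kb in its highest and 21.7 in the lowest of Cry1. Per3 overlapped Cry1 in control, and its mean in light damage was 16.6 ± 0.600 CPM per kb, against 22.4 ± 0.612 for Cry1. That order depends on the transcript lengths used, 4.671 kb for Per1 and 3.026 kb for Cry1.

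**Figure D1:**
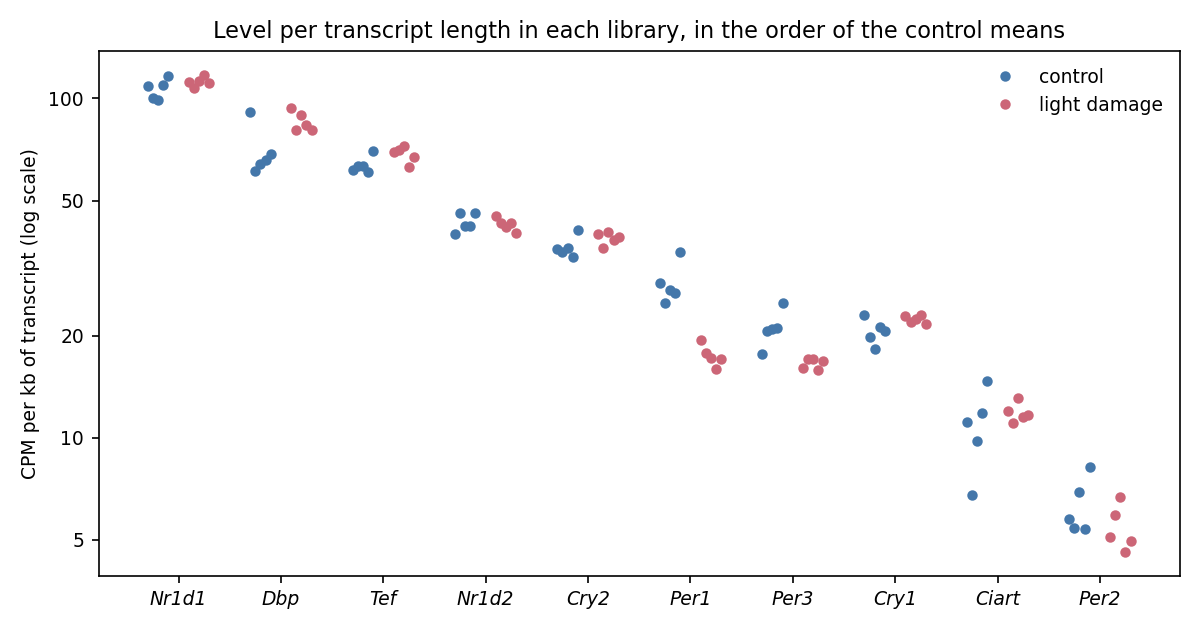
Level of each gene in CPM per kb of its longest annotated transcript (log axis), 1 point per library, with genes in the order of the control means. Per1 drops from above Cry1 in the 5 control libraries to below it in the 5 light damage libraries, while Nr1d1, at 107 CPM per kb in control, stays at the top.

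Per1 (ENSMUSG00000020893), a PER repressor that light induces in the brain's central clock, had the largest fold change of the 10. It had 91.0, 83.1, 80.1, 74.7 and 79.8 CPM in light damage replicates 1 to 5, and 133, 117, 128, 125 and 165 CPM in control replicates 1 to 5. The highest light damage library lay below the lowest control library. Per1 fell by 0.71 on the log2 scale (SE 0.083, 95% interval -0.88 to -0.53, edgeR quasi-likelihood adjusted p = 0.000391), and its p-value was the 10th smallest of all genes. The call held in each of the 20 alternative fits, with log2 fold changes from -0.77 to -0.62. Without light damage replicates 1 and 2 the log2 fold change was -0.77 (edgeR adjusted p = 0.00586), no smaller than with all libraries.

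Per3 (ENSMUSG00000028957), a paralog whose loss alters the rhythm little, also fell. It had 96.5, 102, 103, 94.8 and 101 CPM in light damage, against 106, 124, 126, 126 and 150 CPM in control. The groups did not overlap, with the gap set by control replicate 1. The log2 fold change was -0.34 (SE 0.073, 95% interval -0.50 to -0.19, edgeR adjusted p = 0.00771), and it was called without each single library in turn. Without light damage replicates 1 and 2 its log2 fold change was again -0.34, with an edgeR adjusted p of 0.0686. In that fit 1 of the 10 genes was called lower, Per1, against 1.55% of all genes tested, and 0 were called higher, against 0.782%.

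Per2 (ENSMUSG00000055866), the PER paralog on which the mouse clock depends most, had the lowest level per length of the 10. It had 29.8, 34.6, 38.9, 26.9 and 28.9 CPM in light damage, against 33.7, 31.6, 40.5, 31.5 and 47.8 CPM in control. The groups overlapped, as the light damage values of 34.6 and 38.9 CPM each lay above 3 of the controls. Those of 29.8, 26.9 and 28.9 CPM lay below every control. Its log2 fold change was -0.22 (SE 0.13, edgeR adjusted p = 0.284). The 95% interval of the difference, unadjusted like the others given here, ran from -29.3% to 4.70%, which does not exclude a fall as large as that of Per3.

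**Figure D2:**
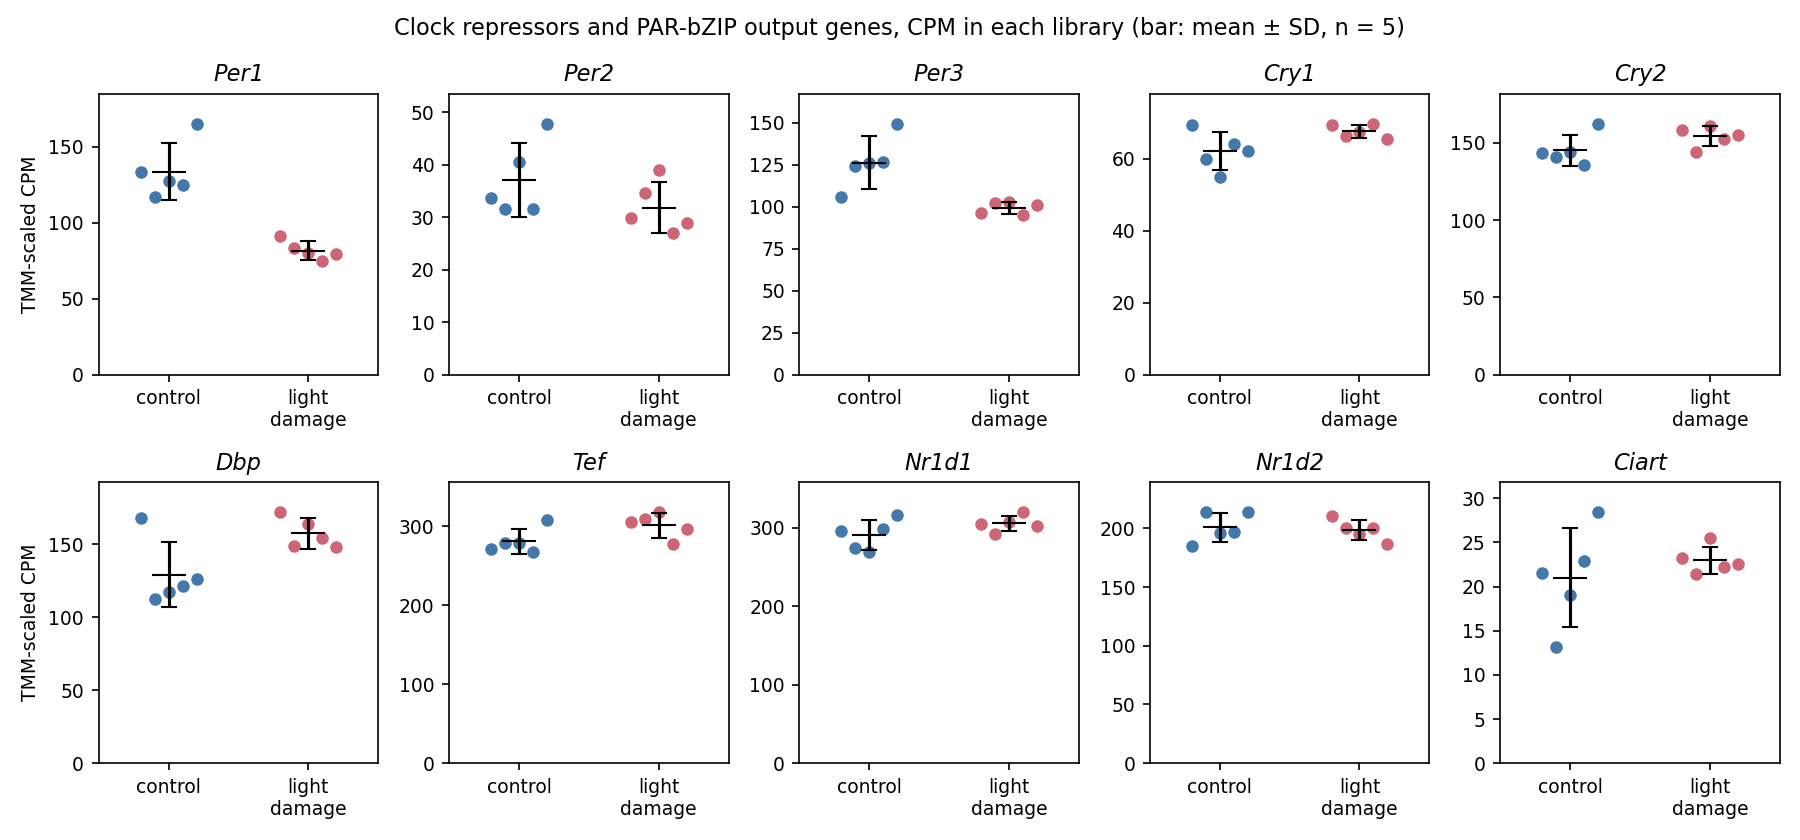
TMM-scaled CPM of the 10 genes, 1 point per library (replicates 1 to 5 from left to right), with the mean and SD of each group of 5. Per1 and Per3 separate the groups, with Per1 between 74.7 and 91.0 CPM in light damage and from 117 CPM upward in control, and the other 8 genes overlap.

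Promoters of Per1 and Per3 are shown because both genes fell. That of Ciart is shown because it carries the most E-boxes among the member promoters found, and Ciart did not pass the test. Each is the stretch of 250 bases before a transcription start, from RefSeq on GRCm38.p6, which is not the build named for the counts. Capitals mark the E-box CACGTG and the CRE core TGACG in the first Per1 promoter, the CRE core in the second, the D-box TTATGTAA in Per3 and the E-box in Ciart.
Per1, first start, chr11:69098699-69098948, plus strand: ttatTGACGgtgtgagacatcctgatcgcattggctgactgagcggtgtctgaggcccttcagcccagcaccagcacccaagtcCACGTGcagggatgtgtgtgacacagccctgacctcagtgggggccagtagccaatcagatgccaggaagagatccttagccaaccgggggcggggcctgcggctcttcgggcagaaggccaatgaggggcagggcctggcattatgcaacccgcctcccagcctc
Per1, second start, chr11:69099902-69100151, plus strand: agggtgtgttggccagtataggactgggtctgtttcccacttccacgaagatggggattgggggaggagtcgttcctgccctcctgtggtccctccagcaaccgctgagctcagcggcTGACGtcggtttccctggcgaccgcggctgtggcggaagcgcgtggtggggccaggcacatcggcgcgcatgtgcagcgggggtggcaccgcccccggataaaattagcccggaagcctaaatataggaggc
Per3, chr4:151044666-151044915, minus strand: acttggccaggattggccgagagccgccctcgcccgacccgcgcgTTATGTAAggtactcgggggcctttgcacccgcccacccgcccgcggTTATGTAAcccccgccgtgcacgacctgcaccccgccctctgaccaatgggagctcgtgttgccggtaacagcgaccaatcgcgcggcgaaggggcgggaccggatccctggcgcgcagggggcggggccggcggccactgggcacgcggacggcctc
Ciart, chr3:95882229-95882478, minus strand: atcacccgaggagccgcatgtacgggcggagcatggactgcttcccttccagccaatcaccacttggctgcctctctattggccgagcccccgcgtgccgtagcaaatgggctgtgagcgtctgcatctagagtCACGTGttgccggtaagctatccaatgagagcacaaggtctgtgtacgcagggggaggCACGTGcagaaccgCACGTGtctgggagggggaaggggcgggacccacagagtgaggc

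Promoter windows, 250 bases before to 50 after a start, were found for 9 of the 10 genes, 11 windows in all, and both strands were searched. The E-box CACGTG, bound by CLOCK and BMAL1, was in 5 of the 11 windows, those of Cry1, Ciart, both starts of Tef and the first start of Per1, and in 7.15% of all 32851 windows in the table. Ciart held 3 copies. The D-box TTATGTAA, bound by PAR-bZIP factors, was in Per3 alone of the 9 genes, as 2 copies, and in 0.938% of all windows. The D-box form TTACGTAA was in no window of these genes and in 0.119% of all windows. The CRE core TGACG, a part of the full CRE TGACGTCA, was in both Per1 windows, Cry1 and Cry2, and in 20.8% of all windows, while the full CRE was in 1.79% of all windows and in none of the 11. The RORE core AGGTCA, bound by REV-ERB and ROR receptors, was in the first Per1 window and in Nr1d2, and in 16.3% of all windows. Dbp and Nr1d1 held none of these letters in their windows. For Nr1d1 and Cry2 the bases after the start were not found in a GENCODE transcript of the gene, so these windows may be misplaced. A match is a description of letters, and sites outside these windows were not searched.

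**Figure D3:**
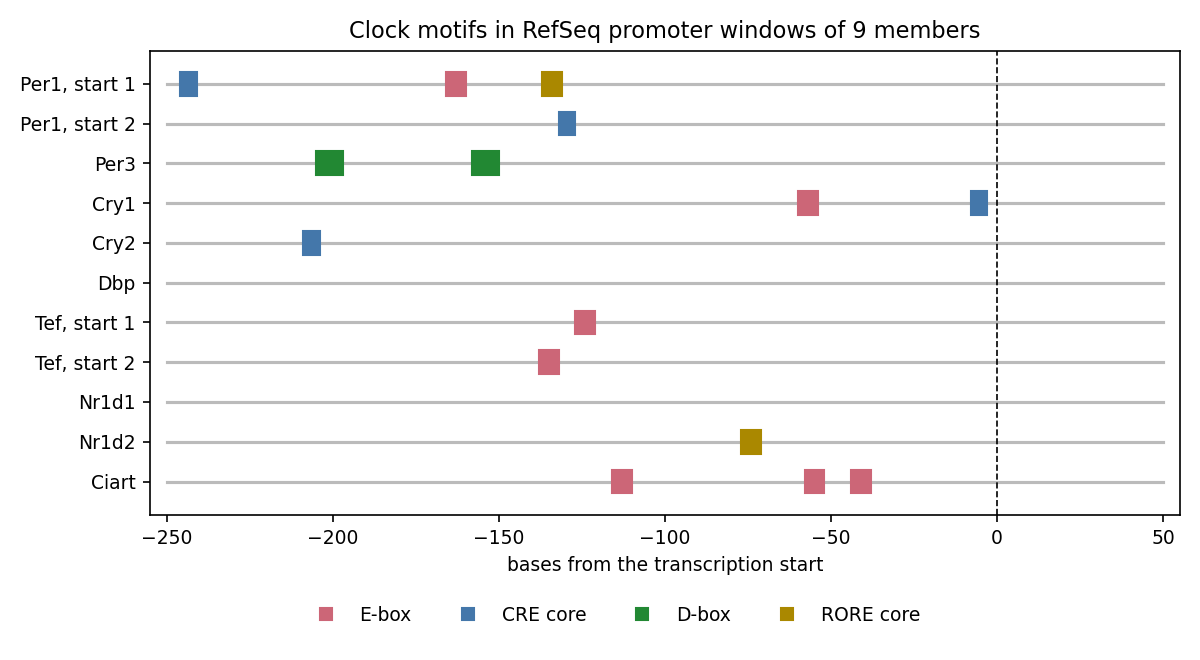
Positions of motif matches in the promoter windows of 9 genes, in bases from the transcription start (dashed line), from 250 before to 50 after it. Per3 carries 2 D-boxes, Ciart 3 E-boxes, and both Per1 starts a CRE core.

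The cryptochromes, which hold the CLOCK and BMAL1 dimer inactive on DNA, did not pass the test in either direction. Cry1 (ENSMUSG00000020038) had 69.4, 66.3, 67.6, 69.8 and 65.6 CPM in light damage, against 69.5, 60.0, 55.1, 64.1 and 62.3 CPM in control. Cry2 (ENSMUSG00000068742) had 158, 144, 161, 152 and 155 CPM in light damage, against 143, 141, 144, 135 and 162 CPM in control. Both overlapped between the groups, Cry1 through control replicate 1 and Cry2 through control replicate 5. The log2 fold change was 0.12 for Cry1 (95% interval -0.453% to 19.1%, edgeR adjusted p = 0.186) and 0.09 for Cry2 (-2.47% to 15.7%, edgeR adjusted p = 0.329). Cry2 shares 4.67% of its annotated exonic bases with the opposite-strand transcript D930015M05Rik, and no source used here says whether the libraries mark strand.

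Ciart (ENSMUSG00000038550), also called Chrono, a repressor that binds BMAL1, varied most within the control group. It had 23.3, 21.4, 25.5, 22.3 and 22.6 CPM in light damage, against 21.5, 13.1, 19.0, 22.9 and 28.4 CPM in control. The controls thus spanned the light damage libraries on both sides. Its coefficient of variation was 26.6% in control and 6.66% in light damage, and counting error at its lowest count, 204, is 7.00%. The log2 fold change was 0.13 (edgeR adjusted p = 0.603), with a 95% interval of -13.3% to 38.7%.

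The REV-ERB receptors, which recruit corepressors to RORE sequences and are among the most strongly rhythmic clock transcripts, had the smallest fold changes of the 10. Nr1d1 (ENSMUSG00000020889) had 305, 293, 307, 320 and 302 CPM in light damage, against 295, 274, 269, 298 and 317 CPM in control. Nr1d2 (ENSMUSG00000021775) had 210, 200, 195, 200 and 187 CPM in light damage, against 185, 214, 196, 197 and 214 CPM in control. Every light damage value of Nr1d2 lay within the range of the controls, and for Nr1d1 only light damage replicate 4 lay above it. The log2 fold change was 0.07 for Nr1d1 (-3.56% to 14.5%, edgeR adjusted p = 0.431) and -0.02 for Nr1d2 (-9.29% to 7.40%, edgeR adjusted p = 0.859), and the sign of the latter changed with library totals in place of TMM. Nr1d1 shares 8.55% of its exonic bases with Thra, a thyroid hormone receptor gene on the opposite strand, so reads there may not be told apart. Thra had a log2 fold change of 0.13 (edgeR adjusted p = 0.153).

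Dbp (ENSMUSG00000059824), a PAR-bZIP activator whose transcript is a standard readout of clock output, had the largest positive fold change of the 10. It had 172, 149, 164, 154 and 148 CPM in light damage, against 168, 112, 117, 121 and 126 CPM in control. All light damage libraries lay above 4 of the controls, and control replicate 1 lay above 4 of the light damage libraries. The log2 fold change was 0.29 (SE 0.094, 6.05% to 40.3%), and the edgeR adjusted p was 0.059. Dbp was called without control replicate 1, at a log2 fold change of 0.41 (edgeR adjusted p = 0.00109), with DESeq2 (adjusted p = 0.0233) and with library totals in edgeR (adjusted p = 0.0299). Without light damage replicates 1 and 2 the log2 fold change was 0.27 (edgeR adjusted p = 0.196). Dbp shares 18.0% of its exonic bases with Sphk2, a sphingosine kinase gene on the opposite strand, which had 17.4 ± 1.62 CPM in control retina and 16.8 ± 2.10 after damage (SD, n = 5 per group).

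Tef (ENSMUSG00000022389), the other PAR-bZIP gene of the set, had 306, 310, 318, 277 and 296 CPM in light damage, against 271, 279, 278, 268 and 308 CPM in control. The groups overlapped through light damage replicate 4 and control replicate 5. Its log2 fold change was 0.10 (-1.57% to 17.0%, edgeR adjusted p = 0.256). The third PAR-bZIP gene, Hlf, was no member of the set and had a log2 fold change of 0.11 (edgeR adjusted p = 0.354).

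Ratios between counts of the same library do not depend on how libraries are scaled to each other, and 5 were tested by an exact two-sided permutation test with adjustment over the 5. Per1 over Per2 was 1.61, 1.26, 1.04, 1.47 and 1.47 on the log2 scale in light damage and 1.98, 1.88, 1.66, 1.98 and 1.79 in control. Every light damage ratio lay below every control ratio, a difference of -0.49 between means of 1.37 ± 0.22 and 1.86 ± 0.14 (SD, n = 5 each; exact permutation p = 0.00794, adjusted p = 0.0397). This p is the smallest that 5 against 5 libraries allow, and with 1 library left out none below 0.0159 was possible. Per1 over Per2 then had an adjusted p of 0.0265 without control replicate 1 and 0.0794 without any other single library (exact permutation). Cry1 over Cry2 differed by 0.04 (exact permutation p = 0.643, adjusted p = 0.643) and Nr1d1 over Nr1d2 by 0.09 (exact permutation p = 0.206, adjusted p = 0.258).

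Dbp over Tef differed by 0.20 on the log2 scale (exact permutation p = 0.151, adjusted p = 0.251). Dbp over Arntl, an output gene against the activator that peaks opposite to it, was 0.77, 0.66, 0.89, 0.52 and 0.55 in light damage and 0.83, 0.18, 0.33, 0.22 and 0.46 in control. The difference between means was 0.27 (exact permutation p = 0.0794, adjusted p = 0.198). Control replicate 1, the library with high Dbp, was the only control above the lowest light damage library. Without it both Dbp ratios separated the groups, with differences of 0.31 over Tef and 0.38 over Arntl (exact permutation adjusted p = 0.0265 for each). Control replicate 1 was the only control to overlap light damage in either ratio, so leaving it out fixed the separation and the p in advance.

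**Figure D4:**
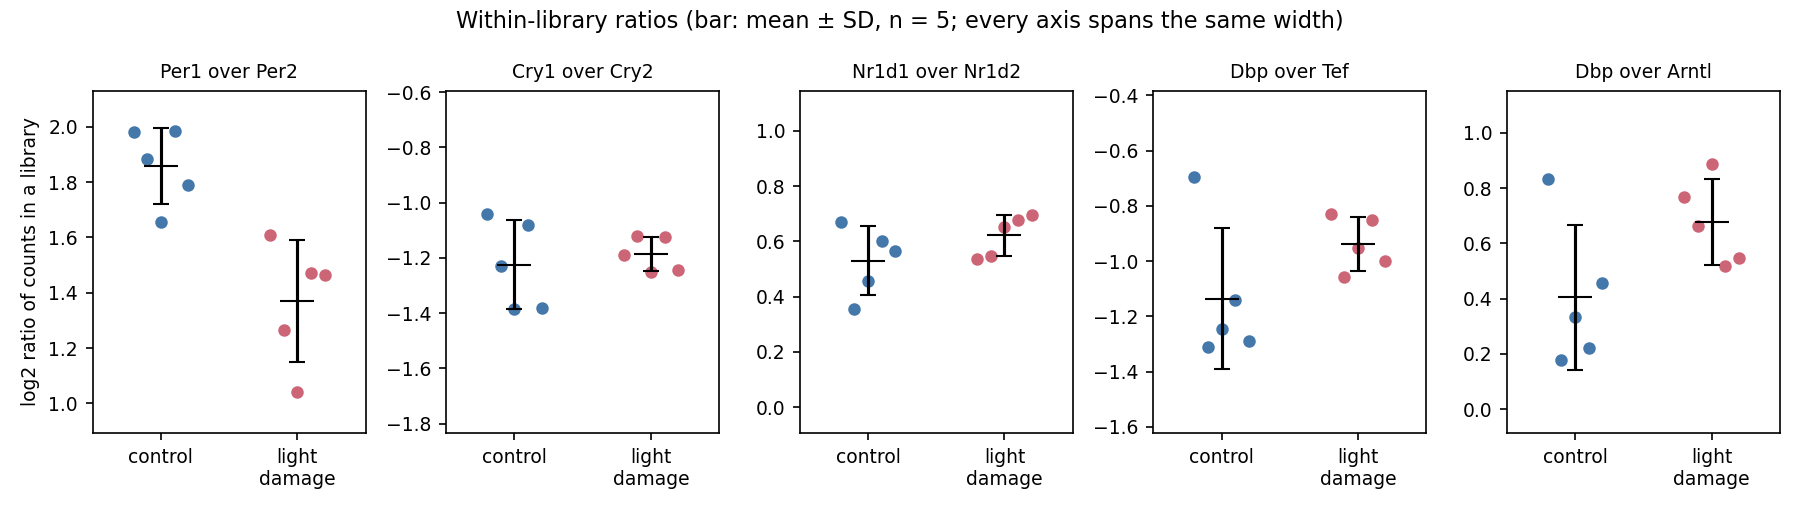
Log2 ratio of 2 genes' counts within each library, 1 point per library with the mean and SD of each group of 5, on axes of equal width. Per1 over Per2 is lower in each light damage library, and in the Dbp panels control replicate 1 (leftmost point) lies apart from the other controls.

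The spread of the 10 genes within each group was also described, with no test. The coefficient of variation was larger in control for 10 of the 10, and for 65.5% of all genes tested. Its median over the 10 genes was 10.4% in control and 4.73% in light damage, against 11.8% and 8.91% over all genes tested. Control replicate 5 was the highest control for 8 of the 10 genes, among them Per1, Per2, Per3, Tef and Ciart, and control replicate 1 was the highest for Cry1 and Dbp. Without control replicate 5 the control spread was larger for 6 of the 10, against 64.4% of all genes tested. The median in control was then 7.04% over the 10 genes and 12.0% over all genes tested. In light damage, replicate 3 was highest for 5 of the genes and replicate 4 lowest for 4. For these counts of highest and lowest libraries, the shares over all genes tested are not given here.

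Among other genes, those whose profile over the 10 libraries was most like that of Per1 were Rhobtb1, an atypical small GTPase gene, Usp2, a deubiquitinase gene with clock-driven expression, and Hk2, a hexokinase of glycolysis. The measure was the root mean square difference between log2 CPM values, each centred over the libraries. It was 0.12, 0.15 and 0.15 for these genes, where a flat profile would differ from Per1 by 0.38. Rhobtb1 had 16.3 ± 1.87 CPM in control retina and 10.1 ± 1.64 CPM after damage, Usp2 162 ± 27.3 and 115 ± 7.38 CPM, and Hk2 456 ± 32.6 and 319 ± 27.8 CPM (SD, n = 5 per group). The log2 fold changes were -0.68, -0.50 and -0.51 (edgeR adjusted p = 0.00253, 0.00693 and 0.000862). The profiles include the difference between groups, so a fall in genes picked as closest to Per1 or Per3 follows from the selection. Closest to Per3 were Pfkfb4, a regulator of glycolysis, Gxylt1, a xylosyltransferase, and Son, a splicing cofactor, at 0.06, 0.07 and 0.07, against 0.20 for a flat profile. Their log2 fold changes were -0.26, -0.43 and -0.28 (edgeR adjusted p = 0.0599, 0.00317 and 0.0166). Pfkfb4 was called without control replicate 1 (edgeR adjusted p = 0.0182). Son lost its call without light damage replicate 3, without control replicate 5, and without light damage replicates 1 and 2 (edgeR adjusted p = 0.0517, 0.0524 and 0.0858).

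Of 31 other clock genes tested, from 33 listed, 6 were lower and 1 was higher, with 4 lower by limma-voom, and their median log2 fold change was 0.04. All genes tested were lower in 7.85% and higher in 5.32% of cases. Without light damage replicates 1 and 2, 2 were lower, against 1.55% of all genes tested, and 1 was higher, against 0.782%. Among the 4 activators, Arntl2, a paralog of Arntl with low expression, fell from 5.10 ± 0.748 to 3.13 ± 0.467 CPM (SD, n = 5 per group; log2 fold change -0.70, edgeR adjusted p = 0.0101), and lost its call without light damage replicates 1 and 2 (edgeR adjusted p = 0.0809). Arntl itself, named for its place in the ratio, had 98.5 ± 7.29 against 96.6 ± 5.09 CPM, and Clock and its paralog Npas2 had log2 fold changes of -0.18 each (edgeR adjusted p = 0.11 and 0.46). Clock was called lower without control replicate 1 (edgeR adjusted p = 0.0285).

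Of 10 kinases, ubiquitin ligases and partners of clock proteins, only Usp2 was called, lower, against 7.85% of all genes tested. It had 106 to 126 CPM in light damage and 128 to 203 CPM in control. Tipin and Fbxw11, next by p-value, had log2 fold changes of 0.20 and 0.15 (edgeR adjusted p = 0.106 and 0.108). Rorb and Rora, receptors that activate through the RORE sequences that REV-ERB proteins repress, fell, with log2 fold changes of -0.64 and -0.24 (edgeR adjusted p = 0.000262 and 0.0395). The call of Rora was kept without light damage replicate 5, control replicate 1 or control replicate 3 and lost without any other single library (edgeR adjusted p up to 0.113), with limma-voom (adjusted p = 0.0528), with library totals (edgeR adjusted p = 0.0688), with no filter on low counts (edgeR adjusted p = 0.052) and without light damage replicates 1 and 2 (edgeR adjusted p = 0.131). Of the 4 other bZIP and bHLH regulators, Hlf, Nfil3, Bhlhe40 and Bhlhe41, 0 were called by edgeR, DESeq2 or limma-voom and 0 had an unadjusted p under 0.05.

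Of 10 rhythmic output genes tested, 2 were lower, against 7.85% of all genes, and 1 was higher, against 5.32%. Rgs16, a regulator of G protein signaling, rose without overlap, from 26.9 to 36.0 CPM in control to 38.7 to 43.4 CPM in light damage (log2 fold change 0.42, edgeR adjusted p = 0.00324). Drd4, a dopamine receptor of photoreceptors, and Adcy1, an adenylyl cyclase, fell, with log2 fold changes of -0.34 and -0.28 (edgeR adjusted p = 0.0418 and 0.0349), and both overlapped between the groups. Leaving out 1 library ended the call of Drd4 except for light damage replicate 5 and control replicates 2 and 3 (edgeR adjusted p up to 0.103), and that of Adcy1 except for light damage replicate 5 and control replicates 1 and 4 (edgeR adjusted p up to 0.0935). Both also lost their calls without light damage replicates 1 and 2 (edgeR adjusted p = 0.187 and 0.169), Drd4 with limma-voom (adjusted p = 0.0515) and with no filter on low counts (edgeR adjusted p = 0.0524), and Adcy1 with library totals (edgeR adjusted p = 0.0834).

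**Figure D5:**
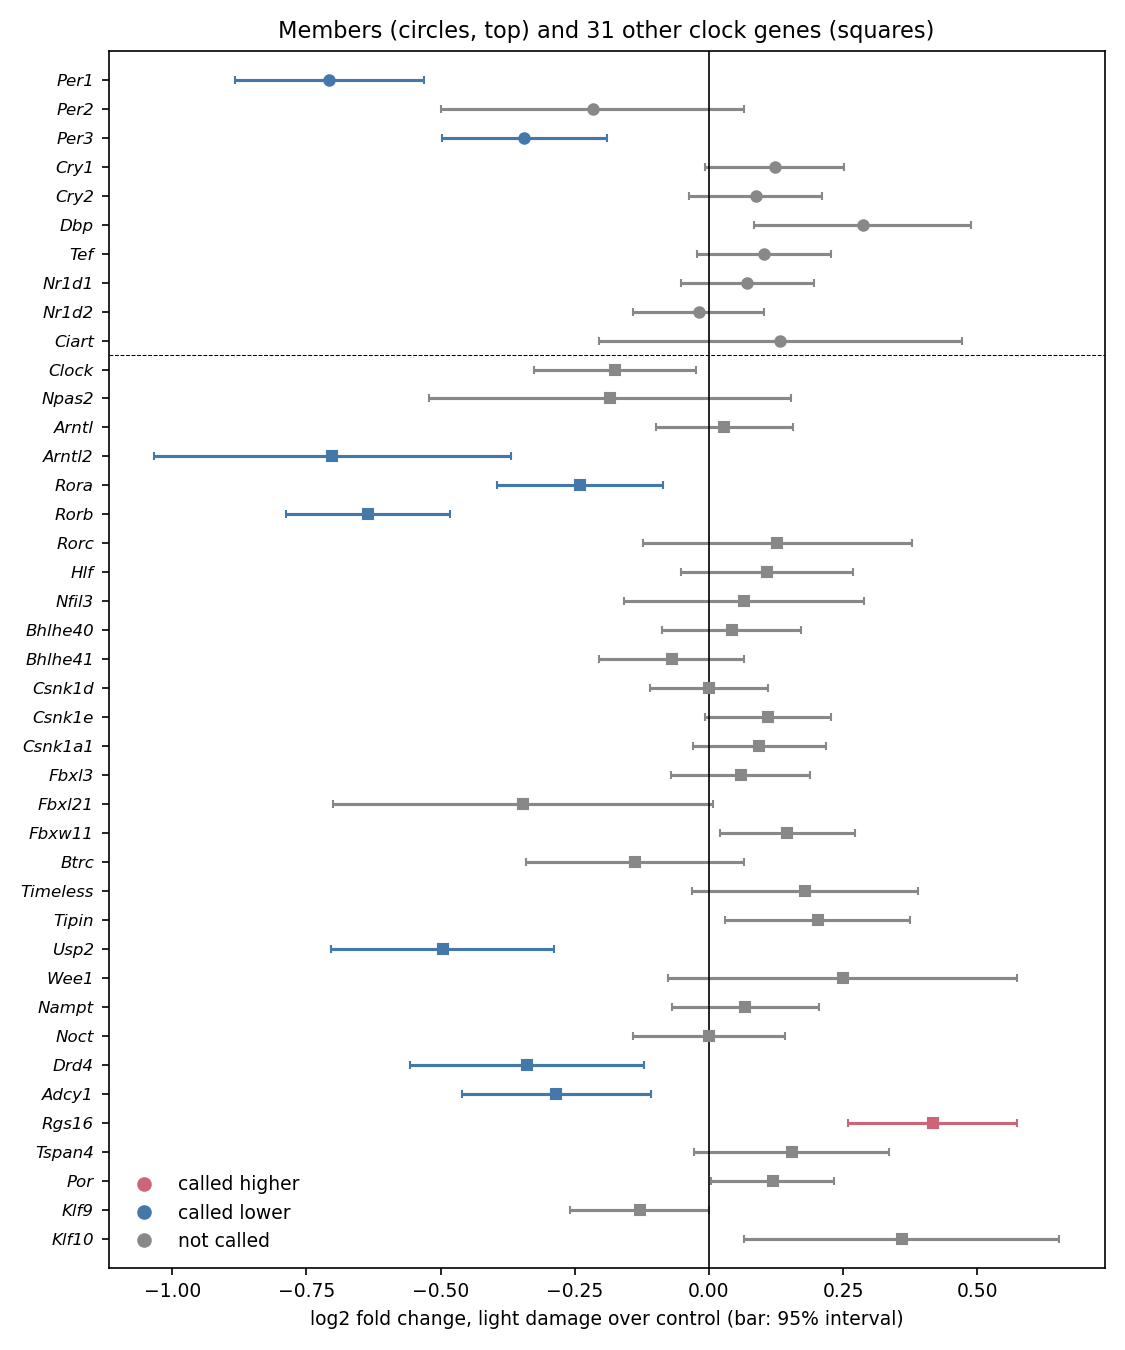
Log2 fold change of light damage over control with its unadjusted 95% interval, for the 10 genes (circles, above the dashed line) and 31 other clock genes (squares), coloured by call at an adjusted p under 0.05. Per1 at -0.71 and Per3 at -0.34 are the called members, and Rgs16 at 0.42 is the one clock gene called higher.

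A pair of gene sets that respond to signals known to act on Per1 as well was also counted. Both lists were written with earlier results of these data known, so the counts are descriptions. A link to the fall of Per1 was not tested. Of 13 activity-induced genes with CRE-linked promoters, 7 were lower, against 7.85% of all genes tested, and 0 were called higher by edgeR, against 5.32%, with 1 higher at an unadjusted p under 0.05 and 1 higher by DESeq2 and by limma-voom. Their median log2 fold change was -0.44. Sik1, a kinase that restrains CREB signaling, had 10.6 to 11.6 CPM in light damage and 19.2 to 23.3 CPM in control, a log2 fold change of -0.97 (edgeR adjusted p = 9.36e-06). Nr4a1 and Nr4a3, orphan receptors of the same response, fell, with log2 fold changes of -1.14 and -2.09 (edgeR adjusted p = 0.000141 and 9.36e-06). Without light damage replicates 1 and 2, 5 of the 13 were lower, against 1.55% of all genes tested. Of 7 glucocorticoid-responsive genes tested, 3 were higher at an unadjusted p under 0.05, a share not given here for all genes. After adjustment 1 was called higher, against 5.32% of all genes tested. It was Cdkn1a, an inhibitor of cell division, with 5.14 ± 0.691 against 3.08 ± 0.581 CPM (SD, n = 5 per group, edgeR adjusted p = 0.00889). Fkbp5, the cochaperone gene often used to read glucocorticoid action, had a log2 fold change of 0.18 (edgeR adjusted p = 0.137). None of the 7 was lower by edgeR, DESeq2 or limma-voom, and 0 were lower at an unadjusted p under 0.05.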

How the data were processed

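Retinal RNA of 10 libraries was analysed from 1 table of whole-number counts per gene. Build GRCm39 and the tools RSEM 1.3.1, Bowtie2 and DESeq2 1.4.5 stand in the submitters' processing notes without a role. No source used here says whether these deposited counts were rounded from estimates or whether counting used strand. Groups and replicate numbers came from the sample titles, and all libraries carry 1 batch entry. Symbols matched 19892 of 19999 identifiers, and lengths are those of the longest transcript, both from GENCODE M21 (GRCm38). Promoters came from RefSeq (GRCm38.p6), where 9 of the 10 symbols matched.

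The fit used edgeR 4.0.16 in R 4.3.3, with filterByExpr at its defaults (16852 genes kept), TMM factors and a robust quasi-likelihood test of group. P-values were adjusted by Benjamini-Hochberg over all 16852 genes, and calls were made at an adjusted p under 0.05. Each SE comes from the F statistic of its gene. CPM is given after TMM scaling, with a prior count of 2 where it was put on a log2 scale. Alternatives were DESeq2 1.42.0, limma-voom (limma 3.58.1), other scalings and filters, no robust dispersion, a replicate block, and each library left out in turn. The fit without light damage replicates 1 and 2 was chosen after seeing the data. Ratios of counts were tested in scipy 1.17.1. No 2 libraries of a group agreed within sampling noise (chi-square per degree of freedom 5.40 or more). In simulated counts for this comparison over 16852 genes, with 50 genes changed at each size, 18% of 1.2-fold and 96% of 1.5-fold changes were recovered. The changed genes were drawn from the better expressed ones, so these shares do not cover genes of low CPM. No simulated library was made to stand apart as light damage replicates 1 and 2 did.

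The genes, the lists and the alternatives were chosen with earlier results of these data known. Named genes are the 10 members, the called genes and up to 3 with the lowest p of each list, and the 3 genes with at least 1 CPM closest to each called member. Arntl, Thra and Sphk2 were named outside this rule. Of the listed genes, Aanat, Avp, Mt2, 3 lens markers and Y-linked genes were not analysed here, and rod markers are not reported here.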

Additional observations from a re-analysis of the deposited data

Results flagged for a closer look

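Of 30 groups of 5 libraries checked over the 10 genes and the 5 ratios, 3 held a library whose gap to the rest, as a share of the group's range, passed Dixon's 95% critical value, where chance gives about 1 group in 20. Dbp had 168 CPM in control replicate 1, against 126 CPM in the next highest control. Its log2 ratio over Tef was -0.69 in the same library, against -1.14 in the next. Tef had 308 CPM in control replicate 5, against 279 CPM in the next highest control.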

How the results depend on the processing

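Per1 kept its direction and its call in all 20 alternative fits, and Per3 in all except the fit without light damage replicates 1 and 2. Between 403 genes, in that fit, and 3285 genes, with the replicate number as a block, were called in all, against 2219 in the fit reported. Fits that left out 1 library called between 1127 and 2991 genes. They called 2 members lower in each case and between 0 and 1 higher, and without light damage replicates 1 and 2 the number lower was 1. Dbp was the 1 member called higher with DESeq2, with library totals alone, without control replicate 1 and with the replicate block (log2 fold change 0.30, edgeR adjusted p = 0.00318). The replicate block changed no other member's call and kept 2 lower, and it called Pfkfb4 lower (edgeR adjusted p = 0.0359). Between libraries that share a number, deviations from the group means had correlations of 0.05 to 0.32 over genes, highest for number 3. The labels do not say that a number marks a shared animal or day, so the block was kept as an alternative. Whether the numbers pair the libraries was not settled.

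Nr1d2 turned from -0.02 to 0.0065 with library totals alone and lay between -0.042 and 0.0049 without 1 library, above 0 without light damage replicate 5, control replicate 2 or control replicate 5. Without 1 library Arntl lay between -0.0036 (without light damage replicate 4) and 0.066, and Sphk2 between -0.099 and 0.0058 (without control replicate 4). Per1 over Per2 lay between -0.55 and -0.41 without 1 library, at -0.53 without light damage replicates 1 and 2, and at -0.49 under the replicate block with exact sign flips (adjusted p = 0.208). Its adjusted p without 1 library was 0.0265 without control replicate 1, where the 2 Dbp ratios reached the same p, and 0.0794 otherwise, the smallest possible where no other ratio is at the minimum. Cry1 over Cry2 lay between -0.0022 (without control replicate 3) and 0.084 without 1 library, Dbp over Tef between 0.15 and 0.31, and Dbp over Arntl between 0.22 and 0.38. Where no cause is named, the cause was not tested. Ciart, with as few as 204 counts, and Per2, with as few as 486, had the least precise counts.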
